A study of Drosophila melanogaster with 2 samples.

Results

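Binding sites of a Ptx1 fusion protein that lay just inside genes, past a coding start, were described on the 4 large autosomal arms of Drosophila melanogaster. A site counted when its summit, the base of highest signal in a peak, lay 1 to 1000 bp downstream of the nearest start of a protein-coding transcript. Summits between or within 100 bp of the starts of a head-to-head gene pair, whose starts are at most 1000 bp apart, were left out. The rule used position alone, and it kept 435 of 5402 peaks on arms 2L, 2R, 3L and 3R, or 8.05%, out of 6840 peaks in the whole conservative list. They belonged to 407 genes, which is 3.49% of the 11669 coding genes on these arms, and 28 genes had 2 such peaks. Where coding genes share a start, as for 8 of the peaks (fray and insc among them), the peak was given to 1 of the genes. The study had chromatin precipitated from whole embryos aged 0 to 24 h of the strain Ptx1-GFP, with an insertion targeting Ptx1. It had 2 biological replicates in 1 group and no second condition, so every comparison below is between kinds of site and not between treatments.

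Ptx1 is a paired-type homeodomain protein of the bicoid class, whose homeodomain carries a lysine that favours the core TAATCC. In flies, the sequence just past a start holds core promoter elements and the 5' untranslated region (5' UTR), which is transcribed and kept in the mRNA. The first intron, which is spliced out, often holds enhancers and further promoters. Whole embryos pool all cell types, so a peak cannot be placed in a tissue, and a site bound in few cells cannot be told apart from one bound weakly in many. The labels describe precipitation through the eGFP tag, although their antibody entry names Ptx1. No control sample was analysed here, and the peak lists carry no read totals, so depth is unknown and intervals cover counting of peaks alone. Replicate numbers come from the labels.

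The sequences below carry the motif results, each from one of the up to 4 highest-scoring peaks of its class that hold the motif on arms 2L, 3L and 3R, read from the RefSeq genome sequence of dm6 on the gene's strand, with the motif in capitals. The first set shows GGTCACAC, known as Motif 1 and bound by the promoter factor M1BP, in 5' UTR peaks: RpL30 at chr2L:19009261-19009290 on the minus strand, RpL27A at chr2L:4458330-4458359 on the minus strand, and cl at chr2L:5520395-5520424 on the plus strand.
RpL30: atccccccgtcGGTCACACcaacacaaacg
RpL27A: cgccgccgggcGGTCACACtgctacaaccg
cl: aagatcatggtGGTCACACacaacgtcaag
The second set shows CGATA, a part of the palindrome TATCGATA (the DNA replication-related element, DRE), in 5' UTR peaks of tank at chr2L:4837838-4837866 on the minus strand and Sry-delta at chr3R:30043361-30043389 on the plus strand. The whole palindrome of CTCF at chr3L:7356716-7356745 on the minus strand follows.
tank: gcactggcacagCGATAagtatgtaagtt
Sry-delta: tagtatagcttcCGATAttcatcattttg
CTCF: accaatcgaacTATCGATAgctggcggtac
The third set shows TATAAA, the letters of the TATA box, in first introns of CG9663 at chr2L:3302400-3302429 on the minus strand, Cyt-c-p at chr2L:16720867-16720896 on the plus strand and Mcr at chr2L:8082182-8082211 on the minus strand. In the last 2 it stands on the other strand, as TTTATA.
CG9663: ctaaaattaataTATAAAagaaatattgtc
Cyt-c-p: attaggtttgttTTTATAgacaaatgcata
Mcr: tcaatattttttTTTATAatgaaaaatatt
The fourth set shows the Antp-class core TAATTA in first introns of CG42327 at chr3R:11656755-11656784 on the plus strand and Cftr at chr3R:24543186-24543215 on the minus strand.
CG42327: tgattgagcttaTAATTAatcgccatttct
Cftr: cgcctgaaatcaTAATTActaaccgaccga
The fifth set shows TAATCC, or its complement GGATTA, in first introns of Dhc64C at chr3L:4824950-4824979 on the minus strand, Stat92E at chr3R:20550150-20550179 on the minus strand and ps at chr3R:9434979-9435008 on the plus strand.
Dhc64C: attacaaaaataGGATTAttttttatatta
Stat92E: gcattggtaaatTAATCCcatgtgttgggg
ps: ggttttaaagttTAATCCaaagaagttagg

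Most of the sites lay in the first intron. Of the 435 peaks, 263 had their summit there (60.5%, exact Clopper-Pearson 95% interval 55.7 to 65.1), and 123 lay in the 5' UTR (28.3%, interval 24.1 to 32.8). Coding exons held 22, later introns 18, and 9 lay past the end of every transcript that uses the start. None lay in a 3' UTR. For 29 of the peaks, transcripts from the same start gave different classes, and the class was then taken in the order coding exon, 5' UTR, first intron. The share of an arm's peaks that lay downstream ran from 7.59% on 3L to 8.26% on 3R.

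A group of low-scoring summits needs naming before the results that hold them. Each peak carries the authors' score, a strength with no stated unit, which ranks peaks within a list. Of the 435 peaks, 31 scored between 2.29 and 34.1, and the next score was 51.6, so a minimum of 40, chosen after seeing the data, splits them off. All 31 had a conservative summit with a score of at least 40 within 500 bp, at a median distance of 204 bp. For 17 of them that neighbour lay upstream of the start. None of the 31 had a ranked summit of replicate 1 within 100 bp, and 3 had one of replicate 2. Of the other 404 peaks, 387 had a ranked summit of both replicates within 100 bp. The low group made up 11.4% of the 5' UTR peaks (14 of 123, exact interval 6.36 to 18.4), 3.42% of the first intron peaks (9 of 263, interval 1.58 to 6.40), 31.8% of the coding exon peaks (7 of 22, interval 13.9 to 54.9) and 1 of the later intron peaks. Among peaks upstream of single starts the share was 5.12% (65 of 1269). The CTCF and cl sequences above come from such summits, with scores of 2.29 and 7.58, since few peaks on the printed arms held those motifs. Several tests below are also given without them. Counts, class shares, positions and densities that are given once include them. Without them the 5' UTR share was 27.0%, and 387 genes had a downstream peak. The median position was then +90 bp in the 5' UTR and +657.5 bp in the first intron.

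The 5' UTR peaks sat close to the start and the intron peaks far from it. The median summit position was +528 bp over all, +101 bp in the 5' UTR and +656 bp in the first intron. Within 200 bp of the start lay 76.4% of the 5' UTR summits, and beyond 300 bp lay 91.6% of the first intron summits. Of the sequence that the rule could have kept, 1.36 of 2.30 Mb of 5' UTR lay within 200 bp. For the first intron it was 0.294 of 2.96 Mb, so the separation was partly set by where the classes lie. In 100 bp steps from the start the downstream summits numbered 65, 52, 18, 40, 32, 47, 44, 55, 41 and 41. The count was thus lowest from 201 to 300 bp, where the 5' UTR summits had thinned to 9 and the intron summits numbered 6. Upstream, the same steps held 220, 307, 217, 147, 105, 85, 69, 37, 40 and 42 summits. The whole peak interval reached across the start in 65.9% of 5' UTR peaks and in 4.18% of first intron peaks. The median peak is 370 bp wide, and a 5' UTR summit near the start can belong to an interval that covers the promoter.

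**Figure D1:**
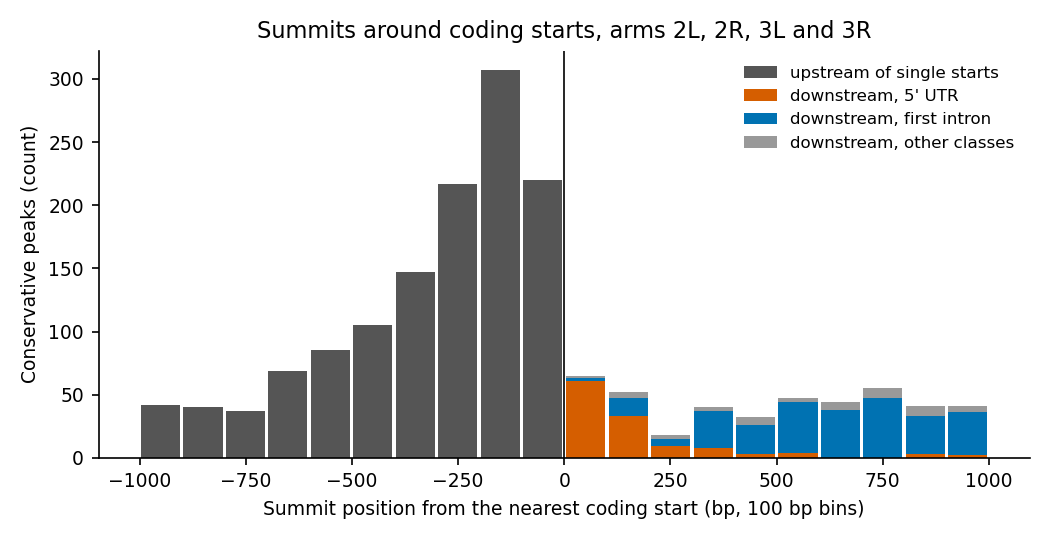
Number of conservative peaks by summit position in 100 bp bins around the nearest coding start (bp, negative values upstream), with downstream peaks split by class. Counts peak upstream at 307, fall to 18 at 201 to 300 bp downstream, and the 5' UTR and first intron classes occupy different distances.

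The amount of available sequence differs by class, so summits were also counted per Mb of sequence that the rule could have kept. The first intron had 88.9 summits per Mb (exact Poisson 95% interval 78.5 to 100.3), the 5' UTR 53.5 (44.5 to 63.8) and coding exons 3.88 (2.43 to 5.88), against 49.6 over the 4 arms as a whole. Upstream sequence within 1000 bp had 146.5 (138.6 to 154.8). The 5' UTR had 69.0 per Mb at 1 to 200 bp (55.8 to 84.5) and 31.9 at 201 to 400 bp (18.6 to 51.1). It had 30.7 at 401 to 600 bp, 0 at 601 to 800 bp and 76.7 at 801 to 1000 bp. Those values rest on 7, 0 and 5 summits. With bases in coding exons of any gene removed, upstream density fell from 263.3 per Mb at 1 to 200 bp to 72.6 at 801 to 1000 bp. First intron density did the opposite, with 54.7 per Mb at 1 to 200 bp (31.3 to 88.8), 51.0 at 201 to 400 bp (35.5 to 70.9) and 91.5 at 401 to 600 bp (70.3 to 117.0). It reached 127.3 at 601 to 800 bp (101.5 to 157.6), where upstream sequence had 82.2 (67.3 to 99.5), and these intervals do not overlap. At 801 to 1000 bp the values were 107.1 (82.5 to 136.8) in the intron and 72.6 (57.7 to 90.1) upstream, and the intervals overlap. The bins were set against each other after the counts were seen, neighbouring summits are not independent, and the share of each kind of sequence that reads can be placed on was not tested.

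**Figure D2:**
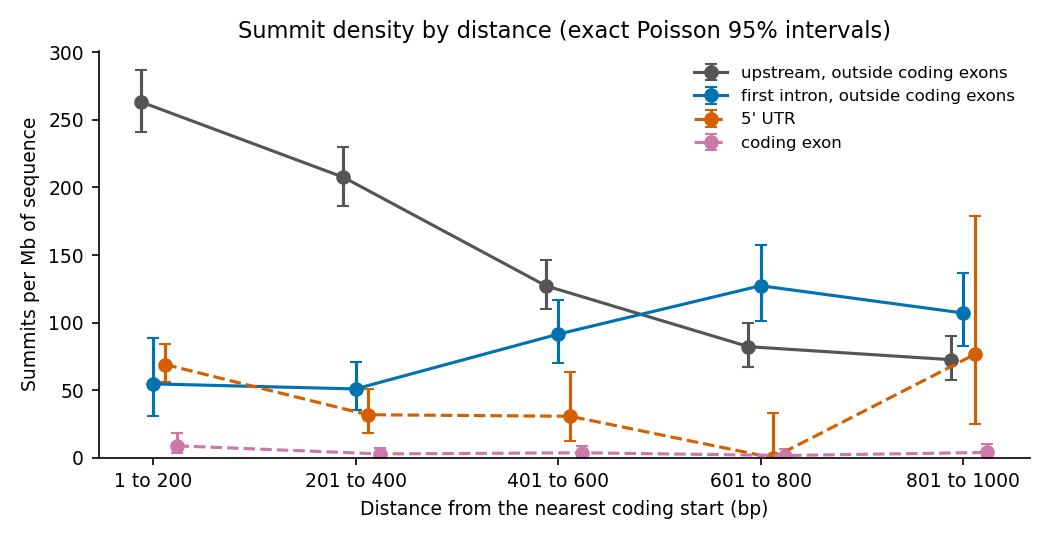
Summits per Mb of sequence that the rule could keep, by distance from the nearest coding start (bp), with exact Poisson 95% intervals. Upstream density falls with distance from 263.3 to 72.6 per Mb, first intron density is highest at 127.3 per Mb from 601 to 800 bp, and coding exons stay under 10 per Mb.

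First introns that held a peak had a median length of 2135 bp (quartiles 871.5 and 4983). A summit far from the start can only lie in an intron that reaches that far. The lengths of introns without a peak were not compared. The summit lay a median of 330 bp past the 5' splice site. By intron length, density was 42.2 per Mb (28.7 to 59.9) in introns under 500 bp, 100.8 (81.7 to 122.9) from 500 to under 2000 bp, 114.2 (93.8 to 137.6) from 2000 to under 10000 bp and 83.7 (54.2 to 123.6) in longer ones. Only the shortest class had an interval below those of the middle classes. Another coding start of the same gene lay within 1000 bp farther along for 34.96% of 5' UTR peaks (43 of 123) and 9.89% of first intron peaks (26 of 263; odds ratio 4.90, Fisher's exact test, two-sided, exact adjusted p = 4.48e-08 over 5 context tests). A first intron or 5' UTR site here can therefore also lie upstream of a second promoter of its gene. Each summit was counted from its nearest coding start, so a further start could lie no closer ahead than the summit's own position. That left less room for first intron summits (median +656 bp) than for 5' UTR summits (median +101 bp). The direction of the difference in further starts was thus partly fixed by the rule, and no conclusion about the classes is drawn from it. The start of a non-coding RNA lay within 100 bp of 7 of the 435 summits.

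A further conservative summit lay within 1000 bp of 32.0% of the downstream summits (139 of 435) and of 25.8% of the upstream ones (328 of 1269; odds ratio 1.35, Fisher's exact test, exact adjusted p = 0.0378). Each summit of the low group has such a neighbour, and with low-scoring peaks left out on both sides the shares were 23.5% (95 of 404) and 16.6% (200 of 1204; odds ratio 1.54, Fisher's exact test, exact unadjusted p = 0.00231). Among the 28 genes with 2 downstream peaks, 11 pairs included a low-scoring summit, and the median distance within a pair was 356.5 bp. Of the pairs without one, 3 with both summits counted from the same start were 200 to 202 bp apart: Ada2b, which encodes a subunit of histone acetyltransferase complexes (positions +372 and +573, scores 175.3 and 217.8), woc, a zinc-finger gene (+158 and +358, scores 79.8 and 118.7), and CG9663 (+724 and +926, scores 947.7 and 1212). For CG9663, replicate 2 had no ranked summit within 100 bp of the summit at +926 bp. In zf30C (+48 in the 5' UTR, score 301.8, and +783 in the first intron, score 162.7) and PAN3 (+52, score 103.9, and +704, score 94.7) a 5' UTR site and an intron site followed the same start. These genes were chosen for the text after their values were seen.

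Peaks past a start passed the reproducibility threshold less often than peaks before one. The irreproducible discovery rate (IDR) measures how well the replicates rank a peak alike, and a scaled IDR of 830 or more is the threshold. Of all 74383 autosomal peaks ranked from the replicate pair, 7.42% passed. Of those downstream of starts, 448 of 9580 passed (4.68%, exact interval 4.26 to 5.12), and of those upstream, 1302 of 6716 (19.4%, interval 18.4 to 20.4). The odds ratio was 0.204 (Fisher's exact test, two-sided, exact p = 1.77e-195), and 0.298 with peaks scoring under 40 left out (Fisher's exact test, exact p = 3.23e-65). Most of the ranked downstream peaks that failed were in coding exons (54.6%), where 22 of 5011 passed (0.439%, interval 0.275 to 0.664). First intron peaks passed in 13.1% of cases (266 of 2032, interval 11.7 to 14.6) and 5' UTR peaks in 7.04% (131 of 1860, interval 5.92 to 8.30), and these classes differed (odds ratio 0.503, Fisher's exact test, exact p = 4.28e-10). Among ranked peaks scoring at least 40, 50.2% of first intron peaks (257 of 512) and 29.8% of 5' UTR peaks (117 of 392) passed (odds ratio 0.422, Fisher's exact test, exact p = 7.49e-10). Over all ranked peaks, the first intron share of 13.1% also lay below the upstream share of 19.4%, with intervals that do not overlap. All peak tests count peaks from the same 2 replicates, so the p-values measure counting of peaks and not spread between embryos.

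Among the peaks that passed, 5' UTR sites scored lower than first intron sites, which lay farther from the start. Between the sites past and before a start, no difference in score passed the test in the main setting. The median score was 134.1 downstream and 143.1 upstream. By definition 50% of the 5402 autosomal peaks scored above their median of 129.0, and 51.7% of the downstream peaks (225 of 435, interval 46.9 to 56.5) and 55.3% of the upstream peaks (702 of 1269, interval 52.5 to 58.1) did so (odds ratio 0.865, Fisher's exact test, exact p = 0.200). With 1 peak kept per gene the odds ratio was 0.744 (Fisher's exact test, exact p = 0.0130), and in the other thresholded list of the series it was 0.674 (Fisher's exact test, exact p = 2.36e-04). It was 0.609 within 500 bp of the start (Fisher's exact test, exact p = 0.00124) and 0.788 with head-to-head starts kept (Fisher's exact test, exact p = 0.0136). The difference was called in each of these settings and not in the others run for it. The 5' UTR peaks had a median score of 103.8 and the first intron peaks one of 158.1. Above the autosomal median were 43.1% of the 5' UTR peaks (53 of 123, interval 34.2 to 52.3) and 59.7% of the first intron peaks (157 of 263, interval 53.5 to 65.7), an odds ratio of 0.511 (Fisher's exact test, exact p = 0.00300). Without the low group the medians were 119.1 and 160.7, and the odds ratio was 0.557 (Fisher's exact test, exact p = 0.0116). The call was lost in the peak list of either replicate alone, with odds ratios of 0.732 (Fisher's exact test, exact p = 0.243) in replicate 1 and 0.683 (Fisher's exact test, exact p = 0.179) in replicate 2, and within 500 bp of the start (0.641, Fisher's exact test, exact p = 0.178).

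The intron scores did not rise or fall steadily with distance from the start. The median score of first intron peaks was 106.4 at 1 to 200 bp (16 peaks), 159.6 at 201 to 400 bp, 167.3 at 401 to 600 bp, 151.3 at 601 to 800 bp and 169.5 at 801 to 1000 bp. The share above the autosomal median was 37.5% in the nearest bin, with an interval of 15.2 to 64.6, and between 58.7% and 65.7% in the farther bins. In the 5' UTR the nearest bin had a median of 107.4 over 94 peaks, and 45.7% were above the autosomal median (interval 35.4 to 56.3). In that bin the 5' UTR peaks thus did not score below the intron peaks. Farther 5' UTR bins had medians of 94.7 (201 to 400 bp, 17 peaks), 196.1 (401 to 600 bp, 7) and 88.0 (801 to 1000 bp, 5). Class and distance went together, so their parts in the score difference cannot be told apart. Coding exon peaks had the lowest median score of the classes, 68.8, and it rests on 22 peaks of which 7 are in the low group.

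**Figure D3:**
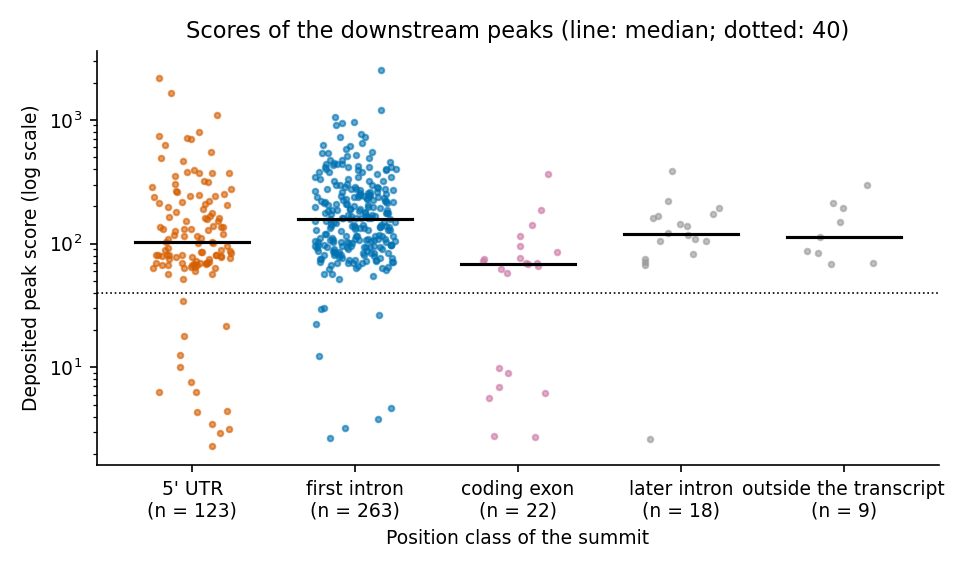
Deposited score of each downstream peak (log axis) by position class, with the class median as a line and the score of 40 dotted. First intron peaks have a median of 158.1 and 5' UTR peaks one of 103.8, and 31 summits in 4 classes lie below 40.

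Support in both replicates followed the same order, and it was not independent of the score, which comes from the same 2 replicates. A peak counted as supported when the thresholded list of each replicate had a summit within 100 bp, which 56.2% of all autosomal conservative peaks met. Of the downstream peaks 55.2% did (240 of 435, interval 50.4 to 59.9), against 61.0% of the upstream peaks (774 of 1269, interval 58.2 to 63.7; odds ratio 0.787, Fisher's exact test, exact p = 0.0362). That difference was no longer called with the low group left out on both sides (odds ratio 0.816, Fisher's exact test, exact p = 0.0846) or with support within 50 bp (0.837, Fisher's exact test, exact p = 0.119). It was called in the other alternatives run for it. There the odds ratio ran from 0.572 within 500 bp of the start (Fisher's exact test, exact p = 3.12e-04) to 0.765 with starts of any transcript (Fisher's exact test, exact p = 0.0206). The 5' UTR peaks were supported in 46.3% of cases (57 of 123, interval 37.3 to 55.6) and the first intron peaks in 63.1% (166 of 263, interval 57.0 to 69.0; odds ratio 0.505, Fisher's exact test, exact p = 0.00275). Without the low group the shares were 52.3% and 65.4% (odds ratio 0.581, Fisher's exact test, exact p = 0.0252). Over the downstream peaks with a ranked summit of the given replicate within 100 bp, the median score was 82.5 in replicate 1 and 62.3 in replicate 2. Ranked summits of both replicates lay within 100 bp of 387 downstream peaks. Over peaks with both, the median log2 ratio of replicate 1 to replicate 2 was 0.28 downstream and 0.30 upstream. It was 0.26 in the 5' UTR and 0.29 in the first intron.

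**Figure D4:**
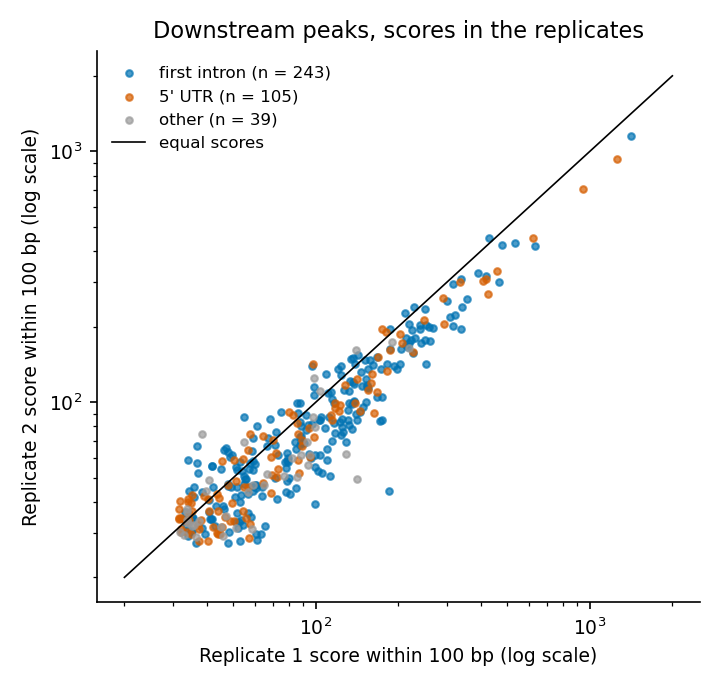
Score of the nearest ranked summit within 100 bp in replicate 1 against that in replicate 2 (both log axes) for the 387 downstream peaks that have both, by class. The 105 points of the 5' UTR and the 243 of the first intron lie along the same band, mostly under the line of equal scores.

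The strongest sites came from both classes. The highest score, 2546, was in the first intron of Adf1, which encodes a transcription factor with a Myb-like domain (2R, 6662865 to 6663255, summit +783 bp). Its replicate scores were 1414 and 1156. GstE13, a glutathione S-transferase gene, followed with 2186 in the 5' UTR (2R, 9122012 to 9122401, +74 bp, replicate scores 1253 and 935.1). The third was tank with 1646, also in the 5' UTR (2L, 4837700 to 4838071, +131 bp, replicate scores 943.1 and 708.1). In all 3 replicate 1 scored higher than replicate 2, as in most of the list.

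Below them the first intron class held CG9663 (scores 1212 at +926 bp and 947.7 at +724 bp, within 1 interval), the RNA-binding protein gene mub (1062 at +919 bp) and the cytochrome c gene Cyt-c-p (765.7 at +940 bp). The CG9663 summit at +926 bp scored 736.0 in replicate 1, and the nearest ranked summit of replicate 2 lay 167 bp away. Dhc64C, the heavy chain of cytoplasmic dynein, had 646.6 at +769 bp, kuk, which encodes a nuclear envelope protein, had 622.0 at +539 bp, and the Ste20-type kinase gene fray had 582.3 at +874 bp. The adducin gene hts had 548.1 at +844 bp, the chloride channel gene Cftr 540.2 at +193 bp, and PRAS40, a regulator of the TOR complex, 538.0 at +898 bp. The others of this class among the 25 strongest were CG31612, CG31635, Fem-1, CG42327 and aru, with scores from 617.0 to 957.4. Their summits lay between +505 and +932 bp.

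In the 5' UTR class CG9399 had 1092 at +53 bp, CG4497 798.2 at +40 bp and Vti1b, a SNARE protein gene, 739.9 at +226 bp. Ufsp1, which encodes a peptidase that acts on the ubiquitin-like protein UFM1, had 706.8 at +3 bp, Fbl6, an F-box gene, 694.4 at +514 bp, and the cation channel gene Trpm 626.2 at +146 bp. CG18622 had 551.1 at +204 bp, and CG2811, the last of its 10 strongest, 492.1 at +12 bp. Nearest inside the 1000 bp limit were Doc1 and dao at +999 bp (scores 104.4 and 63.03) and Ifrd1 at +998 bp (106.7). Nearest outside were Svil at +1005 bp (272.0), Alh at +1007 bp (77.3) and Msp300 at +1008 bp (126.5).

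Regulators of chromatin and of promoters were among the genes with a downstream peak. Counts of genes are set beside the 3.49% of all coding genes on these arms, with no test, because the lists were chosen with results of these data known. Of 31 Polycomb and trithorax group genes, whose products keep genes off or on through development, 6 had one (19.4%, exact interval 7.45 to 37.5), 5 of them in the 5' UTR. The GAGA factor gene Trl had a score of 380.8 at +151 bp, with 225.2 in replicate 1 and 158.8 in replicate 2. Su(z)12, a subunit of the complex that methylates histone H3, had 276.9 at +133 bp, with 166.6 and 110.1 in the replicates. The peaks of lolal (160.5 at +85 bp) and Utx, a histone demethylase gene (100.5 at +216 bp), were lower. The peaks of Su(z)2 (12.7) and jing (2.71) belong to the low group, and without them 4 of the 31 genes remain.

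Of 18 insulator and promoter-binding factor genes 5 had a downstream peak (27.8%, interval 9.69 to 53.5): Adf1, Trl, lolal, pita and CTCF. pita, a zinc-finger insulator protein gene, had 151.1 at +123 bp in the 5' UTR. The insulator gene CTCF had 119.7 at +204 bp in the first intron, with 60.0 in replicate 1 and 46.5 in replicate 2, beside the low summit at +3 bp. Trl and lolal are in both lists.

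Cytoskeleton genes had 7 of 30 with a peak (23.3%, interval 9.93 to 42.3), 6 of them in the 5' UTR. The myosin gene ck was the exception, with 248.4 at +942 bp in the first intron. The septin gene pnut had 212.1 at +163 bp, the cytoskeletal linker gene shot 87.1 at +17 bp and the small GTPase gene Rac2 86.1 at +81 bp. The others were jar, alphaTub84B and dia, with scores from 63.5 to 70.0. Among 37 genes for splicing and RNA-binding factors 5 had a peak (13.5%, interval 4.54 to 28.8), led by mub, ps (399.7 at +758 bp), the poly(A)-binding protein gene pAbp (382.6 at +489 bp) and Rbp9 (137.8 at +845 bp). Fmr1, the fly orthologue of the human fragile X gene, had 131.4 at +14 bp.

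Signalling and hormone response genes gave a few sites each. Of 27 ecdysone response and nuclear receptor genes 4 had a peak (14.8%, interval 4.19 to 33.7), namely Eip75B (368.4 at +36 bp), Hr78 (199.1 at +55 bp), Eip63E (105.0 at +843 bp) and ERR (60.7 at +357 bp). The EGF receptor list had 4 of 25 (16%, interval 4.54 to 36.1), with the rhomboid protease genes rho (114.3 at +824 bp) and ru (103.3 at +449 bp) and the Ets repressor gene aop (88.0 at +897 bp). The fourth was pnut, a septin gene that stands in that list by mistake. In the Dpp list, 2 of 17 genes had one, the receptor gene wit (239.6 at +565 bp) and the signal transducer gene Mad (80.6 at +824 bp). In the insulin and TOR list 2 of 24 did, the lipid kinase gene Pi3K92E (196.1 at +530 bp) and the receptor gene InR (54.2 at +445 bp). Of 22 Wingless and Hedgehog genes the Hedgehog receptor gene ptc (74.4 at +829 bp, in a coding exon) and rdx (69.7 at +772 bp) had one. None of 19 Notch pathway genes did. The peaks of InR and rdx had no ranked summit of replicate 1 within 100 bp.

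Lists of basic cell functions and of tissue regulators had from 0 to 3 genes with a downstream peak. Of 71 ribosomal protein genes 3 had one (4.23%, interval 0.880 to 11.9), all in the 5' UTR and near the start: RpL30 (238.3 at +10 bp), RpL27A (164.8 at +4 bp) and RpS23 (136.0 at +22 bp). The translation factor list had 1 of 44 (eIF3h, 295.9 at +305 bp), oxidative phosphorylation 1 of 74 (Cyt-c-p), and cell cycle and replication 2 of 32 (6.25%), the E2F partner gene Dp (398.1 at +384 bp) and Cdk4 (100.4 at +993 bp). The neural list had 3 of 30 (10%; robo2, brat and insc, scores 57.0 to 76.7), and trachea and epidermis 3 of 104 (2.88%), with crb (305.7 at +997 bp) above rib (83.7) and grh (56.4). The peak of brat had no ranked summit of replicate 2 within 100 bp, and that of insc none of replicate 1. None was found among 62 mitochondrial ribosomal protein genes (exact upper bound 5.78%), 46 proteasome and ubiquitin genes (7.71%), 26 heat shock genes (13.2%), 30 mesoderm and muscle genes (11.6%), 24 K50 and paired-class homeobox genes (14.2%) or 10 HMG-box and histone variant genes (30.8%). At these list sizes a share near the 3.49% of all genes was not distinguishable from 0.

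The 5' UTR and first intron sites differed in sequence. In windows of 101 bp centred on the summit, searched on both strands, 5 of 20 motifs (25%) differed by Fisher's exact test with Benjamini-Hochberg adjustment over the motifs. The first set of sequences above shows GGTCACAC, which was in 5 of 123 5' UTR windows (4.07%) and 0 of 263 first intron windows (exact adjusted p = 0.0131). It was in 0.722% of all 5402 autosomal windows. All 5 matches were on the sense strand, at a median of +23 bp from the start, and RpL30, RpL27A and cl are among the 5 genes. CGATA was in 21.1% of 5' UTR and 9.51% of first intron windows (odds ratio 2.55, Fisher's exact test, exact adjusted p = 0.0131), and in 13.5% of all windows. The whole palindrome TATCGATA was in 1 of 123 and 0 of 263 windows and was not called (Fisher's exact test, exact adjusted p = 0.503). CACACACA, a simple repeat that can overlap the end of GGTCACAC, was in 4.88% and 0% (6 against 0 windows, Fisher's exact test, exact adjusted p = 0.00962), and in 0.926% of all windows.

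TATAAA and TAATTA went the other way. The first was in 24.3% of first intron and 8.94% of 5' UTR windows (odds ratio 0.305 for 5' UTR against intron, Fisher's exact test, exact adjusted p = 0.00576), and in 24.2% of all windows. Its 78 intron matches were split evenly, 39 on each strand, at a median of +752.5 bp. TAATTA was in 14.1% of first intron and 4.07% of 5' UTR windows (odds ratio 0.259, Fisher's exact test, exact adjusted p = 0.0131), and in 10.8% of all windows. GC content moved with these differences, at 42.0% ± 9.64 (SD over 123 windows) in the 5' UTR and 33.5% ± 9.55 (SD over 263 windows) in the first intron. Windows of 30 to 40% GC numbered 35 in the 5' UTR and 80 in the first intron, and none of the 20 motifs was called among them. There the share in the 5' UTR minus that in the intron was 15.4 percentage points for CGATA, -11.4 for TATAAA and -8.93 for TAATTA, against 11.6, -15.4 and -10.0 over all windows, and GGTCACAC and CACACACA were in none.

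TATAAA kept its call between the classes most often. Besides that GC range, it was lost in replicate 1's list alone, where the difference was -6.87 percentage points, and within 500 bp of the start, where none of the 5 was called. In replicate 2's list alone TATAAA was the 1 motif called. The other thresholded list lost CGATA (Fisher's exact test, exact adjusted p = 0.124) and the CA repeat (0.116). Windows of 100 bp either side lost CGATA and GGTCACAC (Fisher's exact test, exact adjusted p = 0.108 each) and the CA repeat (0.735). Without summits in the first 50 bp CGATA (Fisher's exact test, exact adjusted p = 0.997), GGTCACAC (0.564) and TAATTA (0.271) were lost, and with head-to-head starts kept TAATTA was (0.103). All 5 kept their calls without the low group.

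**Figure D5:**
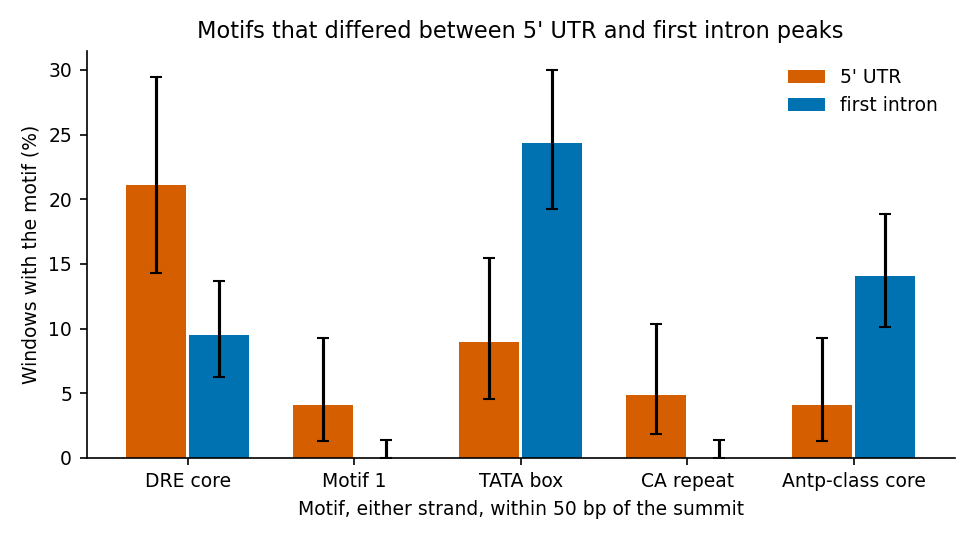
Share of windows (%, either strand, 50 bp either side of the summit) with each of the 5 motifs that differed between 123 5' UTR and 263 first intron peaks, with exact 95% intervals. CGATA, Motif 1 and the CA repeat are higher in the 5' UTR (21.1%, 4.07% and 4.88%), and the TATA box letters and the Antp-class core are higher in the first intron (24.3% and 14.1%). The bars labelled DRE core count CGATA, a part of the DRE, and not the whole palindrome.

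No motif passed the test between sites past and before a start. Against the upstream peaks 0 of 20 motifs (0%) passed Fisher's exact test after adjustment, and 2 had an unadjusted p below 0.05, TATCGATA and TATAAA. The latter was in 17.9% of downstream and 23.3% of upstream windows (odds ratio 0.718, Fisher's exact test, exact adjusted p = 0.239). With windows of 100 bp either side, 4 motifs passed. Against equal windows centred 500 bp farther into the gene, 1 of 20 (5%) passed the exact McNemar test: TATAAA was in 17.9% at the summit and 9.20% in the flank (odds ratio 2.15 over windows that differ, exact adjusted p = 0.00494). The flank windows were richer in GC, at 44.3% ± 10.2 (SD over 435 windows) against 37.2% ± 10.9 at the summit. The difference of 8.74 percentage points was 9 in replicate 2's list alone, where it was not called (exact McNemar test, exact adjusted p = 0.0808), and 3.86 within 500 bp of the start (exact McNemar test, exact adjusted p = 0.817).

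The bicoid-class core TAATCC, shown in the fifth set of sequences, was in 5.29% of downstream windows (23 of 435), 4.89% of upstream windows and 3.22% of flank windows. It was in 3.70% of all autosomal summit windows. Neither difference passed (exact adjusted p = 0.991 by Fisher's exact test against upstream and 0.390 by the exact McNemar test against the flank). Within the downstream peaks it was in 6.08% of first intron and 3.25% of 5' UTR windows, while the control with its letters reversed, CCTAAT, was in 5.32% and 2.44%.

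The DRE was rarer at the downstream sites than at the head-to-head promoters, which the rule leaves out, in a comparison chosen after seeing the data. Of 20 motifs 4 (20%) differed between the 435 downstream and 905 head-to-head windows by Fisher's exact test. The DRE, TATCGATA, was in 1 downstream window (0.230%) and 43 head-to-head windows (4.75%; odds ratio 0.0462, Fisher's exact test, exact adjusted p = 6.90e-06). It was in 1.41% of all autosomal windows, 1.65% of those upstream of single starts (exact adjusted p = 0.239 against downstream by Fisher's exact test) and 0.394% of those farther from a start. The 1 window is the low-scoring CTCF summit shown above, where the match lies 21 bp upstream of the start, and with low-scoring peaks left out the counts were 0 of 404 (exact upper bound 0.909%) and 40 of 881 (Fisher's exact test, exact unadjusted p = 2.80e-07). CGATA (12.4% against 24.1%) and TATAAA (17.9% against 26.1%) were also less frequent downstream. GAGAG, the GAGA factor element, was more frequent, at 11.0% against 6.30% (odds ratio 1.85, Fisher's exact test, exact adjusted p = 0.0164). Mean GC content of the head-to-head windows was 32.1%, against 37.2% downstream.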

How the data were processed

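Peak lists of 2 biological replicates were used. The authors deposited, per peak, a score with no stated unit, a scaled IDR capped at 1000 and a −log10 q value; coordinates are on dm6 per the labels. For the aligner, peak caller and conservative filter, names and settings were not given in the sources used here. Read depth is unknown.

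Summits were placed against Ensembl release 115 coding starts (BDGP 6, the same assembly) and windows were read from the RefSeq genome sequence. Coordinates are 1-based. Upstream peaks followed the mirrored rule. Shares have exact Clopper-Pearson intervals and densities exact Poisson intervals, at 95%. Fisher's exact test and the exact McNemar test were two-sided, with Benjamini-Hochberg adjustment over 20 motifs or 5 context tests, called at 0.05. The functions were tested on simulated data. Named genes are the 25 highest-scoring members, the 10 highest of each class, up to 4 per list by score (more where a list is given in full, a choice made after their values were seen) and those at the window's edge. The members, motifs and 22 gene lists were chosen with earlier results of these data known. Alternatives covered other lists, each replicate alone, other windows, starts, flanks, GC content, measures and score minimum. Scripts ran in Python 3.11.15 with pandas 2.3.3, scipy 1.17.1, matplotlib 3.10.9 and numpy 2.4.6.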

Additional observations from a re-analysis of the deposited data

Results flagged for a closer look

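Outside the main comparisons, 13 downstream peaks of the replicate pair reached the IDR minimum but were absent from the conservative list. The 4 with the highest scores were in Kdm2 (162.6 at +692 bp, with a second summit of 14.3), Ccz1 (142.3 at +8 bp), wdb (131.0 at +38 bp) and Unc-115a (121.5 at +604 bp). What removed them from the list was not given in the sources used here.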

How the results depend on the processing

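No odds ratio that answers a comparison changed direction under any alternative run. Outside the 500 bp window the member count ran from 300 to 559, within 1.5 times 435. Each replicate's list alone gave a 5' UTR against first intron odds ratio for score of 0.683 to 0.732, 0 to 2 motifs against the flank and 0 to 1 motifs between the classes. Within 500 bp there were 207 members, 55.1% in the 5' UTR, score odds ratios of 0.609 against upstream and 0.641 between classes, and 1, 0 and 0 motifs against upstream, against the flank and between classes. With head-to-head starts kept the 5' UTR share was 40.8%, the score odds ratio against upstream 0.788, and 1 and 2 motifs passed against upstream and flank. That odds ratio was 0.674 in the other thresholded list and 0.744 with 1 peak per gene. Windows of 100 bp gave 4 and 2 motifs against upstream and flank, the upstream flank 2, and GC content of 30 to 40% 0 between classes. Replicate support within 50 bp gave an odds ratio of 0.837, and a score of at least 40, chosen after seeing the data, 0.816. Without summits in the first 50 bp the 5' UTR share was 21.2% and 2 motifs differed between classes. Of single motifs, CACACACA turned direction in replicate 1's list, with differences from -0.45 to 0.51 percentage points in either replicate's list. The causes were not tested. No paired comparison of samples between conditions was possible because there is 1 group. Peak counts limit the motif comparisons, and 2 replicates limit them all.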
